A study of Homo sapiens with 6 samples.

Results

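The pregnancy-specific glycoprotein (PSG) genes were followed through an RNA-seq comparison of 3 libraries from cells transfected with control siRNA (siCTR) and 3 from cells transfected with siRNA against LSD1 (siLSD1), all collected 48 h after transfection. The members were picked by name, 7 PSG genes (PSG1, PSG2, PSG3, PSG4, PSG5, PSG6 and PSG9) and, for contrast, CEACAM1 and CEACAM19, which are related genes of the same chromosome arm. They are 9 of 15585 genes in the 6-library table, and 8 of the 9 passed the filter on low counts that left 11844 genes for testing. The PSG genes were chosen with their values in these same libraries known, so their difference between the groups is given here as a description. The fit over all genes included them, and where it called them this is stated to describe them and is no independent evidence. The knockdown was transient and used 1 cell line, labelled U2OS, an osteosarcoma line. The labels do not say which LSD1 siRNA was used, so an effect of LSD1 loss and one of a single siRNA sequence cannot be told apart. They also leave unstated whether the 3 libraries of a group came from separate cultures. The p-values below therefore weigh the difference between the groups only against the spread between these libraries, which may be technical.

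PSG proteins are secreted members of the carcinoembryonic antigen family within the immunoglobulin superfamily. They are made in large amounts by the syncytiotrophoblast of the placenta and are among the most abundant fetal proteins in the blood of pregnant women. Their genes lie side by side in a cluster on chromosome 19, most other tissues express them little, and several PSG proteins are known to activate latent TGF-β and to bind integrins or syndecans. LSD1, encoded by KDM1A, removes methyl groups from lysine 4 of histone H3 and works with the CoREST proteins and histone deacetylases HDAC1 and HDAC2.

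The sequences show how alike the starts of these genes are. RefSeq promoter windows (GRCh38.p14, 250 bases before to 50 after the gene start) were matched for 4 of the 9 members, PSG3, PSG4, PSG5 and CEACAM1. The stretch of 118 bases around a conserved C-rich box is printed 5′ to 3′ on the minus strand, with the 8 bases of the box in capitals.
PSG3, chr19:42740475-42740592: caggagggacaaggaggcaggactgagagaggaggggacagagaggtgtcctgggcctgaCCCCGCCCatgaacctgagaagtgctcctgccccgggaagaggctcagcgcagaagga
PSG4, chr19:43205627-43205744: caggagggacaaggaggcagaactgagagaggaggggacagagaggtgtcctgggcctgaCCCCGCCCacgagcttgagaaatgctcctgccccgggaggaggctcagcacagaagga
PSG5, chr19:43186495-43186612: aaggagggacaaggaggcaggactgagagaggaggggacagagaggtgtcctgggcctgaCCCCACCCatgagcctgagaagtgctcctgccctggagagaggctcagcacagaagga
CEACAM1, chr19:42528478-42528595: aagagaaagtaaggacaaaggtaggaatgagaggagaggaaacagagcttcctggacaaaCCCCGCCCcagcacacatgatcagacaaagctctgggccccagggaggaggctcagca
Over this stretch PSG3 and PSG4 were identical at 94.1% of aligned positions, PSG3 and PSG5 at 94.1%, and PSG4 and PSG5 at 91.5%. Identity of the PSG stretches with CEACAM1 was 58.8% to 62.1%.

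The box reads CCCCGCCC, a GC box, in PSG3, PSG4 and CEACAM1, and CCCCACCC, the CACCC box of Kruppel-like factors, in PSG5. Read on both strands, CCCCACCC was found in 11.1% of 35116 RefSeq promoter windows and CCCCGCCC in 22.8%, and the GC box was added to the search after the sequences had been seen. The ETS site ACCGGAAG (2.17% of windows), the GATA site AGATAA (10.3%) and the TATA box TATAAA (11.5%) were not found in the 4 windows. The TEAD site GGAATG (14.0%) was found in that of CEACAM1 alone. A match only describes the letters in these windows.

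The libraries held 12513511 to 13561344 counted reads, and no 2 of them agreed within sampling noise. The chi-square statistic over genes, divided by its degrees of freedom, was 6.45 for the closest and 39.2 for the most distant libraries. The second siCTR library stood farthest from its group, at 29.2 and 22.7 against the other two, which were at 7.02 against each other. KDM1A was counted 6140, 6493 and 6573 times in siCTR libraries and 1110, 1198 and 1246 times in siLSD1 libraries, so the targeted gene matched the labels. It fell by 2.44 ± 0.11 on the log2 scale (SE; Benjamini-Hochberg adjusted p = 2.27e-07, edgeR quasi-likelihood test), from 489 to 90.4 CPM (counts scaled to library size).

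Markers of the cell line label were mixed, and several went against it. RUNX2, the master regulator of osteoblasts, had 0 to 4 reads per library, and SPARC, a bone matrix protein, had 0 to 3. The keratins KRT8 and KRT18, typical of epithelia, had 21772 to 29212 and 10914 to 16655 reads. The other epithelial markers were much lower, with 66 to 154 reads of CDH1, 28 to 41 of EPCAM, 0 to 4 of KRT19, 0 to 1 of KRT5 and 0 to 5 of KRT14. Vimentin (VIM) had 9487 to 11615 reads and ALPL, an osteoblast phosphatase, 4162 to 5411, and both fit the label. Of the other mesenchymal and osteoblast markers, CDH2 had 585 to 781 reads, FN1 238 to 794, COL1A1 122 to 200, TWIST1 9 to 32 and BGLAP 1 to 12. COL1A2, SPP1 and IBSP were not in the 6-library table. These are all genes of the mesenchymal and osteoblast list and of the epithelial list, and 2 more genes come from no list and were picked with their values in view. The telomerase subunit TERT had 71 to 109 reads and the cell cycle inhibitor gene CDKN2A had 1841 to 2883, whereas U2OS is known for keeping telomeres without telomerase and for lacking the p16 product of CDKN2A. The cells are therefore called only by their label.

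Across the PSG genes, reads were few in siCTR and more numerous in siLSD1. PSG4 and PSG5 carried most of the signal in both groups, and the largest ratios belonged to genes with only a few reads in siCTR. Of the 7 PSG members, 6 were called higher in siLSD1, at an edgeR adjusted p under 0.05. Among all genes tested, 127 (1.07%) were called higher and 44 (0.371%) were called lower, and since the members were chosen on this contrast, nothing is read from their count against these shares. Their log2 fold changes had a median of 1.94 and ranged from 0.86 to 3.18, beside a median of -0.01 over all genes tested. In bulk RNA, more RNA in every cell and more cells with that RNA cannot be told apart.

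PSG4 was the most abundant PSG gene. It had 120, 118 and 112 reads with siCTR, against 347, 332 and 377 with siLSD1. Every siLSD1 library lay above every siCTR library by a wide margin, and the libraries of a group lay close together. Its level per gene length was 4.11 ± 0.239 FPKM (SD, n = 3) in siCTR and 12.4 ± 0.407 FPKM (SD, n = 3) in siLSD1. The log2 fold change was 1.59 ± 0.14 (SE), or 3.01-fold in mean CPM.

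PSG5 came next, with 58, 49 and 64 reads with siCTR, against 152, 152 and 198 with siLSD1. Again the groups were far apart. The level was 1.21 ± 0.145 FPKM in siCTR and 3.54 ± 0.462 FPKM in siLSD1 (SD, n = 3 each), a log2 fold change of 1.55 ± 0.18 (SE). PSG4 and PSG5 together had 521 reads in siCTR and 1558 in siLSD1.

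PSG2 had 12, 11 and 11 reads with siCTR, against 52, 40 and 40 with siLSD1. The siCTR libraries were nearly equal and all siLSD1 libraries were higher. The level was 0.563 ± 0.0393 FPKM in siCTR and 2.18 ± 0.325 FPKM in siLSD1 (SD, n = 3 each), and the log2 fold change was 1.94 ± 0.30 (SE).

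PSG6 had the largest ratio of the 7 members. It had 5, 2 and 4 reads with siCTR, against 49, 30 and 24 with siLSD1, so it went from near the limit of detection to a level close to that of PSG9. Its level was 0.0744 ± 0.0316 FPKM in siCTR and 0.696 ± 0.260 FPKM in siLSD1 (SD, n = 3 each), with a log2 fold change of 3.18 ± 0.46 (SE). With so few siCTR reads the size of this ratio is set by a handful of reads.

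PSG1 and PSG3 were both near the lower limit of counting in siCTR. PSG1 had 3, 8 and 10 reads with siCTR, against 30, 22 and 38 with siLSD1, a log2 fold change of 2.07 ± 0.41 (SE). PSG3 had 3, 2 and 7 reads with siCTR, against 20, 26 and 14 with siLSD1, a log2 fold change of 2.29 ± 0.51 (SE). In neither gene did the groups overlap. The levels of PSG1 were 0.178 ± 0.0892 FPKM in siCTR and 0.764 ± 0.176 FPKM in siLSD1 (SD, n = 3 each), and those of PSG3 were 0.154 ± 0.0985 and 0.784 ± 0.267 FPKM. PSG1, PSG3 and PSG6 passed the filter through their siLSD1 libraries, because fewer than 3 of their siCTR libraries had at least 10 reads. Passing in this way favours genes that are higher in siLSD1, though it fixes neither the size of the difference nor a call. The call of PSG1 was lost when any 1 library other than the second siLSD1 library was left out, and that of PSG3 when any 1 library other than the third siLSD1 library was left out, and with scaling by library size only. Without the third siCTR library the log2 fold change of PSG3 was 2.92.

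PSG9 was the member whose groups overlapped. It had 18, 11 and 28 reads with siCTR, against 43, 24 and 37 with siLSD1, so the highest siCTR library was above the lowest siLSD1 library. The level was 0.420 ± 0.181 FPKM in siCTR and 0.764 ± 0.193 FPKM in siLSD1 (SD, n = 3 each), with a log2 fold change of 0.86 ± 0.35 (SE), and PSG9 was not called. In summed reads it came after PSG4 and PSG5 in siCTR, and after PSG4, PSG5 and PSG2 in siLSD1.

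The contrast genes of the wider family had groups that overlapped. CEACAM1, a membrane adhesion receptor and signalling protein, had 4, 6 and 4 reads with siCTR, against 15, 12 and 5 with siLSD1, and did not pass the filter. Its level was 0.0962 ± 0.0244 FPKM in siCTR and 0.221 ± 0.108 FPKM in siLSD1 (SD, n = 3 each). The ratio of these means was 2.30, from few reads, beside 1.82 in PSG9, the lowest of the PSG members. CEACAM19 had 95, 86 and 90 reads with siCTR, against 124, 111 and 70 with siLSD1. The third siLSD1 library was lower than all siCTR libraries, and the log2 fold change of CEACAM19 was 0.17 ± 0.22 (SE).

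**Figure D1:**
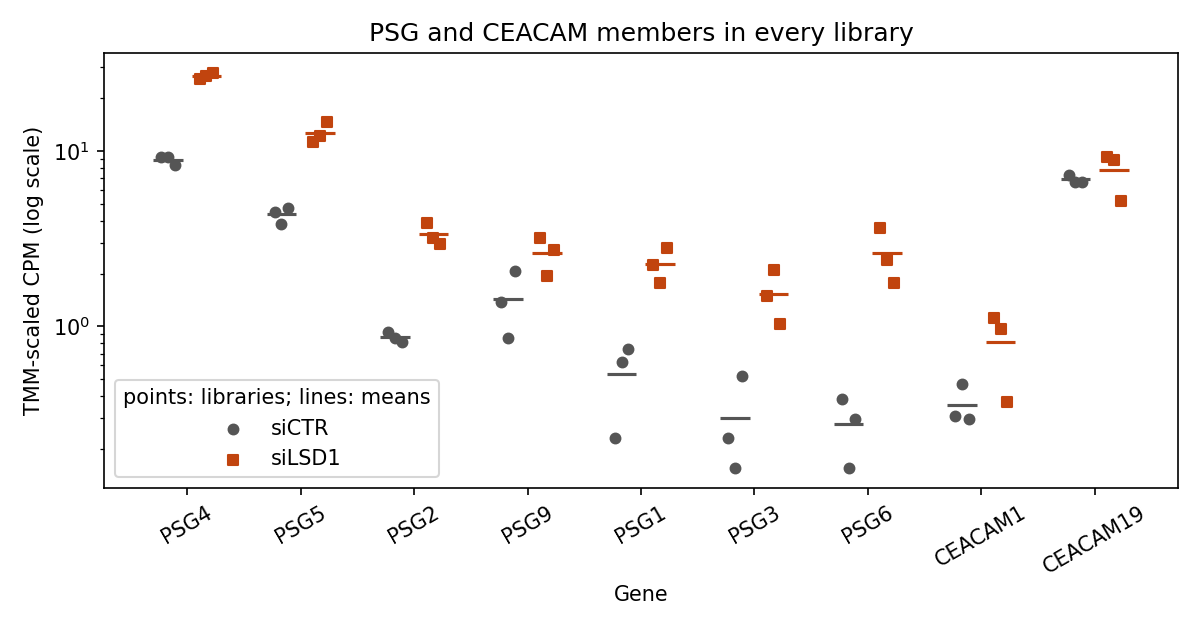
TMM-scaled CPM (log axis) of the 9 members in each library, with siCTR as circles, siLSD1 as squares and short lines at the group means. In 6 PSG genes all 3 siLSD1 libraries lie above all 3 siCTR libraries, whereas the groups overlap in PSG9, CEACAM1 and CEACAM19.

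Of all genes tested, 11.4% had every siLSD1 library above every siCTR library in CPM, which is the background for the 6 of 7 PSG members that did. Since this contrast was used to choose them, nothing more is read from it.

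Per gene length, the order of the levels in siCTR was PSG4, PSG5, PSG2, PSG9, PSG1, PSG3 and PSG6. PSG4 lay above PSG5 and PSG5 above PSG2 with no overlap between libraries. From PSG2 down, each neighbour in FPKM overlapped the next in at least 1 library. In siLSD1 the order began with PSG4, PSG5 and PSG2, again without overlap, and PSG3, PSG9, PSG1 and PSG6 followed at 0.784, 0.764, 0.764 and 0.696 FPKM, which their libraries do not separate. Their siCTR levels had run from 0.0744 to 0.420 FPKM.

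PSG4 went from being higher than 47.5% of the genes in the table by mean FPKM in siCTR to being higher than 68.4% in siLSD1. The corresponding shares were 34.6% and 45.5% for PSG5, 17.3% and 30.2% for PSG6, and 27.3% and 30.9% for PSG9. Every PSG member other than PSG4 remained below the median gene of the table in siLSD1.

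**Figure D2:**
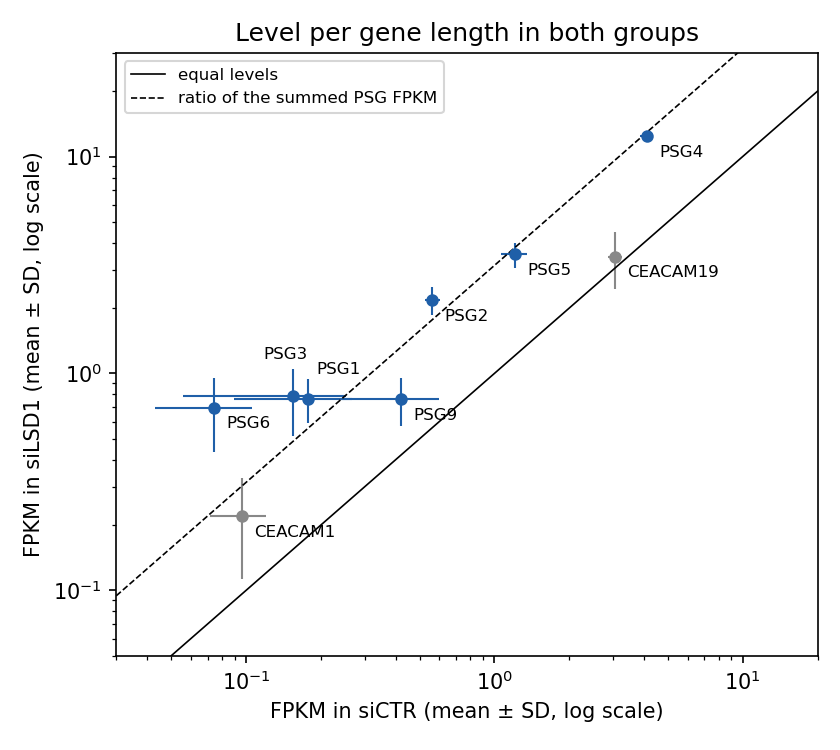
Mean FPKM in siLSD1 against mean FPKM in siCTR (both axes logarithmic, bars are SD over 3 libraries) for PSG genes in blue and CEACAM genes in grey. The dashed line marks the ratio of the summed PSG FPKM, 3.15, with PSG4 and PSG5 near it at 3.01 and 2.93, PSG2, PSG1, PSG3 and PSG6 above it and PSG9 below.

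Reads that fit several PSG genes can be given to one of them or to none, so the sum over the family depends less on how reads were split. The 7 members together had 219, 201 and 236 reads with siCTR, against 693, 626 and 728 with siLSD1. The sums varied little within a group, at 16.7 ± 0.962 CPM in siCTR and 52.0 ± 1.89 CPM in siLSD1 (SD, n = 3 each), coefficients of variation of 5.76% and 3.64%. The ratio of the means was 3.11. Without PSG4 the ratio was 3.24, from 306 reads in siCTR and 991 in siLSD1, so PSG4 alone does not set it. Leaving out the second siCTR library, the one farthest from its group, gave a log2 ratio of 1.60 beside 1.64 with all libraries.

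Each gene's share of the PSG reads follows from the counts above and is given as a description. PSG4 took 53.4% of the PSG reads in siCTR and 51.6% in siLSD1, and PSG5 took 26.1% and 24.5%. PSG6 took 1.68% and 5.03%, and PSG9 took 8.69% and 5.08%. The share of PSG6 was 3.30% to 7.07% in the siLSD1 libraries and at most 2.28% in the siCTR libraries, where it rests on 11 reads in all. The share of PSG9 ran from 5.47% to 11.9% in siCTR and from 3.83% to 6.21% in siLSD1, and overlapped, as did those of PSG1 and PSG3.

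The 3 other PSG genes in the table were nearly silent. PSG8 had 1, 0 and 1 reads with siCTR, against 11, 2 and 6 with siLSD1. PSG7 had 0, 2 and 1 reads with siCTR, against 0, 3 and 4 with siLSD1, and PSG11 4, 1 and 2 in siCTR against 7, 4 and 3 in siLSD1. With all 10 PSG genes the summed reads were 668 in siCTR and 2087 in siLSD1. The 5 other CEACAM genes in the table, CEACAM5, CEACAM7, CEACAM8, CEACAM16 and CEACAM20, had 0 to 4 reads in every library.

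Close relatives and overlapping transcripts limit how far single genes can be trusted. Of all 50-base words in the GENCODE 44 transcripts, 15.2% in PSG4 and 15.6% in PSG6 occurred in another PSG gene, and the share was 16.9% in PSG5 and 26.7% in PSG3 and in PSG9. Counting words found in any other gene, the share was 27.1% in PSG5 and 34.6% in PSG9, and summing over the family does not remove that part. Over whole gene spans, introns included, the antisense transcript PSG11-AS1 covers 100% of PSG2 and 25.9% of PSG5. The pseudogene CEACAMP10 lies on the same strand over 63.8% of the span of PSG9. Of the words in PSG2, 19.4% occurred in another PSG gene and 19.5% in any other gene, with both strands of genes outside the family read. The annotated transcripts of PSG2 thus share almost no words with PSG11-AS1. Whether the counting used strand is not stated, so reads of PSG5 and of that antisense transcript cannot be told apart where their transcripts overlap.

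The same 6 libraries were counted again in other deposited tables, which gave a check on the counting. The 7 PSG members had 2703 reads in the first set and 2981 in the second, a ratio of 1.10, and genes of 60 to 2000 reads had a median ratio of 1.11. The ratio of single PSG genes ran from 1.07 in PSG2 and PSG9 to 1.14 in PSG6. Log2 fold changes moved by 0.16 at most, from 3.18 to 3.02 in PSG6, which is less than their SE. In the second set 6 of the 7 PSG genes were again called higher, and PSG9 was not.

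**Figure D3:**
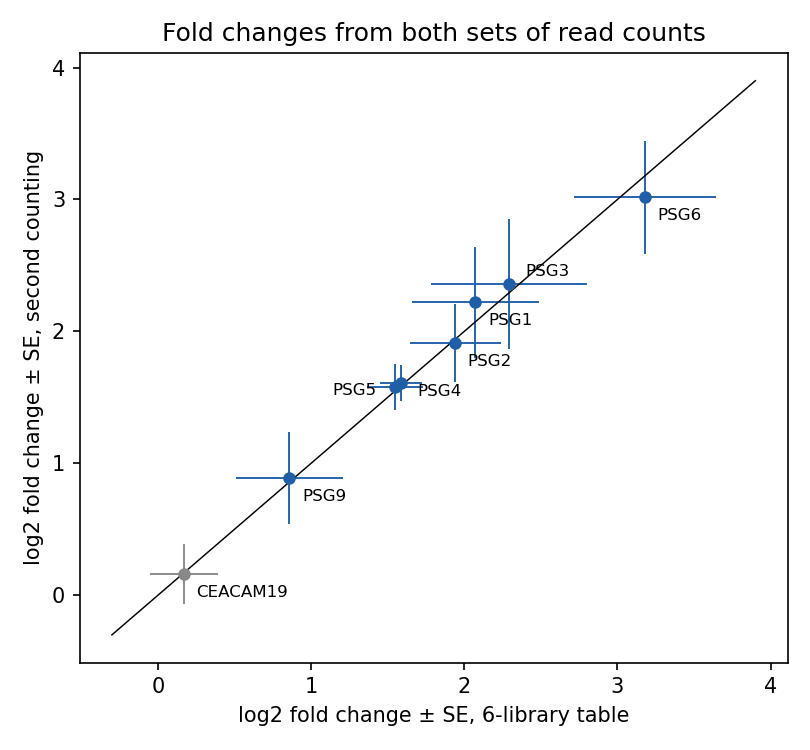
Log2 fold change in the second set of counts against that in the 6-library table, each with its SE, for the 8 members that passed the filter, with the line of equal values. PSG genes are blue and CEACAM19 is grey, and every point lies within 1 SE of the line.

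The PSG genes lie together on the minus strand of chromosome 19, at chr19:42721638-43269530 (GRCh38, GENCODE 44), over 547.9 kb. From the centromere side the members run PSG3, PSG1, PSG6, PSG2, PSG5, PSG4 and PSG9. In that order their log2 fold changes were 2.29, 2.07, 3.18, 1.94, 1.55, 1.59 and 0.86. By their outermost GENCODE starts, CEACAM1 lies 160.4 kb and CEACAM19 1393 kb from the cluster, and the RefSeq windows of CEACAM1 and PSG4 printed above belong to starts farther inside those genes.

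Genes around the cluster were not used to choose the members and were tested. No gene of the table outside both families lay inside the cluster. Of the genes that start within 1 Mb of it, 52 were in the table and 42 were tested. Of these, 1 was called higher and 0 were called lower (edgeR, Benjamini-Hochberg adjusted p under 0.05), and 2 were higher and 1 lower at an unadjusted p under 0.05. Over all 11844 genes tested, 886 were higher and 776 lower at that unadjusted threshold, which is the background for this count and for those of the lists below. Calls were 1 higher and 0 lower with DESeq2 and with limma-voom too. Their median log2 fold change was 0.02, beside -0.01 for all genes tested.

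The called neighbour was ZNF45, a zinc finger gene 665.8 kb away, with 384, 353 and 442 reads with siCTR, against 692, 703 and 946 with siLSD1. The groups did not overlap, and the log2 fold change was 0.99 ± 0.14 (SE; Benjamini-Hochberg adjusted p = 0.00574, edgeR quasi-likelihood test). The nearest tested genes on either side were LIPE, the hormone-sensitive lipase gene 294.2 kb away, and LYPD3, 196.1 kb away. LIPE had a log2 fold change of -0.24 ± 0.16 and LYPD3 of -0.03 ± 0.15 (SE), and neither was called. CD177 at 84.2 kb, TEX101 at 132.0 kb and CXCL17 at 278.7 kb lay closer on their side but did not pass the filter. CD177 had 2, 8 and 2 reads with siCTR, against 8, 13 and 8 with siLSD1. CXCL17 had 3, 0 and 6 against 5, 1 and 1, and TEX101 had 0 to 1 per library.

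**Figure D4:**
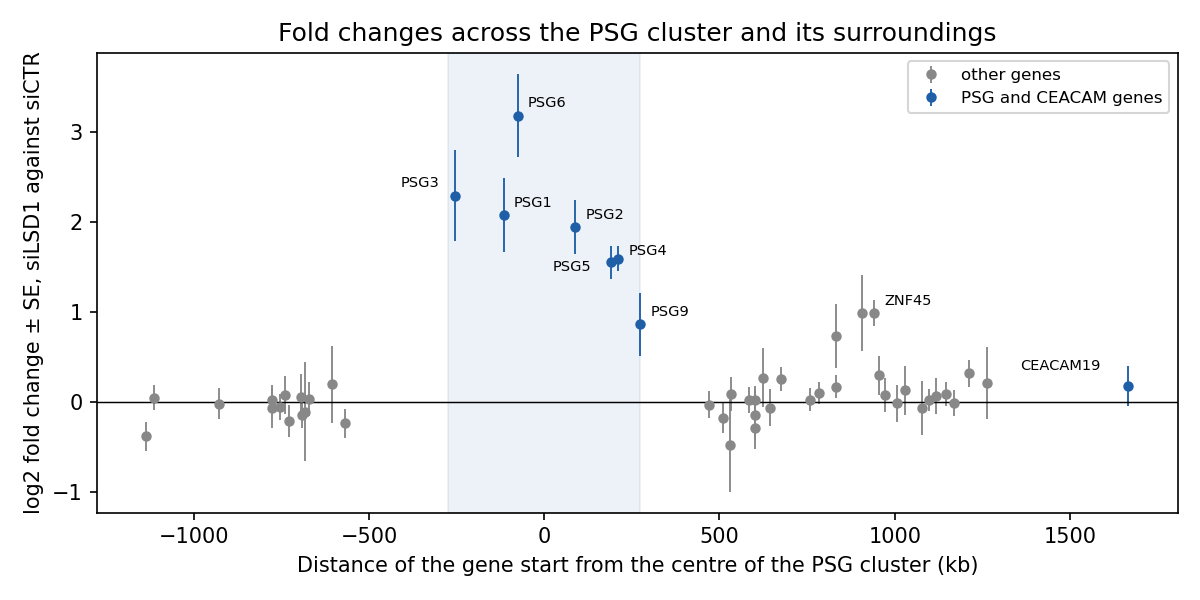
Log2 fold change with its SE against the distance of the gene start from the centre of the PSG cluster in kb, with the cluster shaded, PSG and CEACAM genes in blue and other tested genes in grey. The 7 PSG genes lie between 0.86 and 3.18, and the other genes between -0.48 and 0.99, the highest of them being ZNF45.

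Regulators that are known to act on PSG promoters were measured next. All 10 genes of that list (Kruppel-like factors, SP1 and SP3, GABP subunits, retinoid receptors) were tested, with a median log2 fold change of 0.18, and 1 was called higher and 0 lower, beside 1.07% and 0.371% of all genes. At an unadjusted p under 0.05, 3 were higher and 0 lower. RARB, a retinoic acid receptor, had 46, 33 and 40 reads with siCTR, against 87, 65 and 93 with siLSD1, with no overlap. Its log2 fold change was 1.03 ± 0.22 (SE; Benjamini-Hochberg adjusted p = 0.0394, edgeR quasi-likelihood test), a call lost with limma-voom and without any 1 of 5 libraries, all but the first siCTR library. Of 2 genes named after their values were seen, KLF4, a Kruppel-like factor, stood at 0.38 with an edgeR Benjamini-Hochberg adjusted p of 0.133, and KLF6 at 0.41 with 0.139, and these were not called.

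Of the partners of LSD1 (CoREST proteins, deacetylases and associated subunits), 8 of 8 were tested and 0 were called (edgeR, Benjamini-Hochberg), with 0 higher and 1 lower at an unadjusted p under 0.05. DESeq2 and limma-voom called 0 too. Their median log2 fold change was -0.07. HDAC1 had 212 CPM in siCTR and 237 in siLSD1, and HDAC2 had 206 and 204.

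Proteins that PSG proteins bind or act on were 14 genes, of which 12 were tested. Of these, 2 were called higher and 0 lower, beside 1.07% and 0.371% of all genes. At an unadjusted p under 0.05, 3 were higher and 1 lower. The median log2 fold change was 0.06. SDC4, a syndecan, had 645, 700 and 684 reads with siCTR, against 1120, 1061 and 1222 with siLSD1, a log2 fold change of 0.74 ± 0.11 (SE; Benjamini-Hochberg adjusted p = 0.0067, edgeR quasi-likelihood test). LTBP1, which holds latent TGF-β in the matrix, had 1518, 1219 and 1544 reads with siCTR, against 2065, 1914 and 2166 with siLSD1, a log2 fold change of 0.52 ± 0.11 (SE; Benjamini-Hochberg adjusted p = 0.0434, edgeR quasi-likelihood test). The LTBP1 call was lost when any 1 of the 6 libraries was left out and with scaling by library size only. TGFB1 itself, also named after its value was seen, was at -0.09 and was not called.

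Since trophoblast makes most PSG, 32 of its markers were examined, of which 25 were in the table and 13 were tested. None was called in either direction (edgeR, Benjamini-Hochberg), with 1 higher and 1 lower at an unadjusted p under 0.05. DESeq2 called 0 higher and 1 lower, GATA2, and limma-voom called 0. The median log2 fold change was -0.04, and the summed level was 624.7 to 657.8 CPM in siCTR and 633.8 to 686.6 CPM in siLSD1. Most of that sum came from KRT7 (250.8 CPM in siCTR and 290.5 in siLSD1) and TFAP2A (146.5 and 142.7), which epithelial cells express too.

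Single trophoblast markers, named here after their values were seen, differed widely in level. GCM1, the regulator of syncytiotrophoblast formation, had 0, 0 and 2 reads with siCTR, against 0, 0 and 1 with siLSD1. CGB3, CGB5, CGB7 and CGB8, which encode the beta subunit of chorionic gonadotropin, had 0 to 2 reads per library. CGA, its alpha subunit, was at 51.6 CPM in siCTR and 52.3 in siLSD1. XAGE2 had 324 to 434 reads per library, and INSL4, an insulin-like peptide gene of the placenta, had 65 to 144. The part of these markers in the PSG values was not tested. PLAC1, a placental gene, had 9, 10 and 10 reads with siCTR, against 25, 21 and 32 with siLSD1, with no overlap, but was not called (log2 fold change 1.41 ± 0.34, SE; Benjamini-Hochberg adjusted p = 0.0647, edgeR quasi-likelihood test).

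The other lists held few calls. Of 12 mesenchymal and osteoblast markers, 6 were tested, with a median log2 fold change of 0.14. In this list 1 was called higher and 0 lower, beside 1.07% and 0.371% of all genes. This was FN1, the fibronectin gene, with 382, 238 and 433 reads with siCTR, against 640, 609 and 794 with siLSD1 (log2 fold change 0.95 ± 0.18, SE; Benjamini-Hochberg adjusted p = 0.0216, edgeR quasi-likelihood test). The call was lost without the first or the third siLSD1 library. At an unadjusted p under 0.05, 1 mesenchymal or osteoblast marker was higher and 0 were lower. Of 7 epithelial markers, 4 were tested and 0 called (edgeR), with 1 higher and 1 lower at an unadjusted p under 0.05. DESeq2 called 1 higher, CDH1, and limma-voom called 0. Their median was -0.10. KRT8 and KRT18 had the largest levels, with log2 fold changes of -0.14 and -0.32.

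The genes whose profile over the 6 libraries was most like the summed PSG reads were SF3B2, ATG13, PAPSS2, TPM4 and C1QTNF6. SF3B2 encodes a splicing factor subunit, ATG13 an autophagy initiation factor, PAPSS2 a sulfate donor synthase, and TPM4 a tropomyosin. Pearson's r of log2 CPM was 0.998 for SF3B2, 0.998 for ATG13, 0.998 for PAPSS2, 0.995 for TPM4 and 0.994 for C1QTNF6, over 6 libraries. The points share the same split into groups, and 168 of 11836 genes had an r over 0.95. Pearson's r does not measure the size of a difference. The ratio of mean CPM was 1.20 for SF3B2, 1.22 for ATG13, 1.78 for PAPSS2, 2.245 for TPM4 and 1.76 for C1QTNF6. That of the summed PSG reads was 3.11. SF3B2 and ATG13 were not called, and PAPSS2, TPM4 and C1QTNF6 were called higher (edgeR).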

How the data were processed

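After alignment with STAR, the authors deposited whole-number read counts and FPKM values per gene for 6 libraries. The genome build, the annotation, the counter and strand use are not given in the sources used here. The authors' tables for pairs of libraries hold a second set of counts, used as a check. Columns of the authors' own comparison (fold changes and p-values), the shorter subset of the table and the statistics table were not used.

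Counts were tested with the quasi-likelihood test of edgeR 4.0.16 (R 4.3.3), without covariates, after TMM scaling and a filterByExpr filter at 10 counts, with Benjamini-Hochberg adjustment over 11844 genes and an adjusted p under 0.05 as call. The biological coefficient of variation was 12.6%. Log2 CPM used a prior count of 2. Alternatives used DESeq2 1.42.0, limma 3.58.1, other scalings and filters, a replicate block, the second counts, and all 6 sets of 5 libraries. The procedure was tested on simulated data. Remaining steps used Python 3.11.15 with pandas 2.3.3, numpy 2.4.6, Biopython 1.88 and matplotlib 3.10.9.

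The members and lists were chosen with earlier results of these data known. Named genes were the members, KDM1A, all other genes of both families, the nearest tested neighbours and called neighbours, and of each list the called genes (up to 5) or otherwise the 2 with the largest mean CPM, and the 5 most like the PSG sum. A gene named outside this rule was picked with its values in view, apart from the 2 full marker lists given for the cell line label. Gene positions came from GENCODE 44 (GRCh38), in which 15352 of 15585 gene names matched. Depth was 12513511 to 13561344 reads per library. Counting limits the precision of genes with few reads, such as most PSG genes, and the spread between libraries that of the others. CPM are scaled to TMM-corrected library sizes.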

Additional observations from a re-analysis of the deposited data

How the results depend on the processing

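The number of genes called higher was 127, and 210 with DESeq2. It was 489 with the replicate number as a replicate block. Leaving out 1 library at a time gave 45 to 99, lowest without the third siCTR library. The number called lower was 44, and 113 with DESeq2, 102 with no filter on low counts and 408 with the replicate block. Leaving out 1 library at a time gave 7 to 37, lowest without the second siLSD1 library. Among genes near the PSG cluster 1 was called, and 2 with the replicate block, which added RPS19 as lower. Of the genes in the lists, the replicate block also called KLF4, KLF6, ITGB1, PLAC1 and CDH1 as higher and GPC1 and GATA2 as lower. The cause of these differences was not tested. Same-numbered libraries deviated together with correlations of 0.328, 0.0745 and 0.310, so the libraries are taken to share only a number, although each correlated best with its own number. The count of PSG members called higher was 6 in the replicate block, 5 with scaling by library size and 4 to 6 across all 14 alternatives. PSG2, PSG4, PSG5, PSG6, ZNF45 and SDC4 were called in all 14. PSG1 was lost in 5 of the 6 fits that left out a library, all but the one without the second siLSD1 library, and PSG3 in 5, all but the one without the third siLSD1 library, and with scaling by library size. The log2 fold change of PSG3 was 2.92 without the third siCTR library. The log2 ratio of the summed PSG reads was 1.64 and ran from 1.60 to 1.68 in the fits that left out a library. No value turned its direction. Reads of PSG1, PSG3 and PSG6 in siCTR were too few to fix the size of their ratios.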
